A study of Mus musculus with 55 samples.

Results

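The tripartite motif (TRIM) family was followed here in the sorted bone marrow populations of WT and Tet2-deficient mice. Its members were taken by symbol alone, as every gene of the first count table named Trim followed by a number, with or without letters. This gave 68 of 55421 genes, and 16 of the 68 lie on chromosome 7. The study asked which genes change in hematopoietic stem and progenitor cells when Tet2, an enzyme that oxidizes methylated cytosine in DNA, is lost, and what the cytosolic DNA-sensing adapter STING adds to it.

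The first set held 46 RNA-seq libraries of 6 populations, namely long term and short term hematopoietic stem cells (LT-HSCs and ST-HSCs) with lymphoid (CLP) and myeloid (CMP) common progenitors and the progenitors of granulocytes and macrophages (GMP) and of megakaryocytes and red cells (MEP). Each group had 4 libraries, except WT LT-HSCs and WT ST-HSCs with 3. Tet2-/- mice were Tet2 f/f, Mx1-Cre animals on a C57BL/6 background. In these mice poly(I:C), a mimic of double-stranded RNA, switches on the interferon-responsive Mx1 promoter, so that Cre is not limited to blood cells and the inducer is itself an interferon stimulus. They were given 5 intraperitoneal doses of 250 µg every other day from 4 weeks of age, and cells were sorted 16 weeks after induction. Whether the WT mice also received poly(I:C) is not given in the sources used here. The second set held 9 LT-HSC libraries, 3 each of WT, Sting-/- (a constitutive loss) and Tet2;Sting DKO (Tet2 f/f, Sting-/-, Mx1-Cre) animals. From the study's description of how Mx1-Cre was induced, the DKO mice had the same 5 doses of 250 µg from 4 weeks of age. Each library was 1 population of about 200 cells by the labels.

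TRIM proteins carry a RING finger, B-boxes and a coiled coil, and most act as E3 ligases, which take ubiquitin from an E2 enzyme and attach it to a chosen target. The C-terminal domain sets the target, a SPRY domain in many antiviral members and a PHD finger with a bromodomain in the members that bind chromatin. Many members are induced by interferon and tune the sensors of foreign nucleic acid, and in blood cells others take part in erythroid maturation and in gene silencing.

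Depth was between 50458473 and 102148079 counts per library in the first set and between 26775681 and 78680486 in the second. TRIM genes took from 0.0391% to 0.141% of the counts in the first set. Tet2 itself, the check of the labels, was not lower in the libraries labelled Tet2-/- as a whole. Its mean was 13.2 ± 1.77 CPM, that is counts scaled to library size and, by TMM, to composition (SD), in WT and 23.9 ± 12.7 in Tet2-/- LT-HSCs, and 20.7 ± 3.04 against 16.2 ± 8.21 in CMPs. A count over the whole gene need not show the loss of floxed exons, so the genotype is given below as labelled. Outside CLPs the population labels were borne out by their markers, with high sums of 5 HSC genes in LT-HSCs and ST-HSCs alike, and the highest sums of 5 myeloid genes in GMPs and of 5 megakaryocyte-erythroid genes in MEPs. Among CLPs, Il7r, Flt3, Dntt and Rag2 each had counts in at least 1 library, but Rag1 was at 0 in all 4 WT libraries. The 5 lymphoid genes summed to medians of 944 CPM in WT and 1510 in Tet2-/- CLPs, the highest of the populations. The 5 myeloid genes had medians of 580 CPM in WT and 3160 in Tet2-/- CLPs, the latter above the lymphoid median there. CLP libraries also had the fewest genes and low TMM factors, 0.516 to 0.713 in WT and 0.740 to 1.08 in Tet2-/-, where the other groups lay between 0.946 and 1.19. Replicates are labelled as separate samples without a named animal, so p-values measure the spread between these libraries.

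Of the 68 members, 9 had no count in any of the 46 libraries, 15 reached at most 100 counts and 44 passed 100 counts in at least 1 library. The genes at 0 were Trim29, Trim31, Trim42, Trim52, Trim60, Trim61, Trim63, Trim72 and Trim80, among them the muscle ligases Trim63 and Trim72. After the filter on low counts, 47 were tested in at least 1 comparison of genotypes and 32 in all 6. Per kilobase of exon, the highest over the 46 libraries was Trim28 at 30.3 CPM per kb, followed by Trim13 at 27.9, Trim30a at 16.5, Trim34a at 13.6 and Trim59 at 12.1. This order pools the populations and need not hold in each. Trim13 had 142 CPM in WT ST-HSCs and 16.7 in WT GMPs, where Trim28 had 132 and 111. Trim28 is the corepressor that silences retroelements with KRAB zinc finger proteins, Trim13 and Trim59 are anchored in the membrane of the endoplasmic reticulum, and Trim30a and Trim34a are interferon-inducible. Near-identical neighbours on chromosome 7 (Trim12a and Trim12c, Trim30a to Trim30d, Trim34a and Trim34b) may share reads, so their separate levels are uncertain.

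The interferon-inducible members are shown first by their promoters, because the results on Trim30a, Trim12c and Trim34a below concern genes of this group. The core of the interferon-stimulated response element, GAAA and GAAA with any 2 bases between them, was searched on both strands from 250 bases before to 50 after each RefSeq start (GRCm38.p6). It was found in 3.44% of 32851 promoters and, counted by symbol as the members are below, in 3.99% of 27025 symbols. Of the members, 53 had an entry. The motif was in the window of 8 of 15 members of a list of 16 interferon-inducible or antiviral TRIM genes and of 1 of the other 38, Trim2. It lay before the start in Trim5, Trim12c, Trim30a (first of its starts), Trim30d and Trim26 and after it in Trim21, Trim34a, Trim12a and Trim2. The 30-base windows below run 5′ to 3′ on the strand of the gene, with the motif, or its reverse complement, in capitals.
Trim21: ctgagagGAAACTGAAAGTGAAAtttggac
Trim34a: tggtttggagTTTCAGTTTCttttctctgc
Trim5: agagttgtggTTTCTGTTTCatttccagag
Trim12a: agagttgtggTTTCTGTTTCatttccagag
Trim12c: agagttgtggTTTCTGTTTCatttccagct
Trim30a: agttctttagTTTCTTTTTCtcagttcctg
Trim30d: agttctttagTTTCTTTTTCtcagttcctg
Trim26: cttccgaTTTCACTTTCCTTTTCtcgggcc

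These windows lie at chr7:102565447-102565476 on the minus strand for Trim21, chr7:104244457-104244486 on the plus strand for Trim34a, and chr7:104288136-104288165, chr7:104315466-104315495 and chr7:104353359-104353388 on the minus strand for Trim5, Trim12a and Trim12c. Those of Trim30a and Trim30d are at chr7:104465210-104465239 and chr7:104507871-104507900 on the minus strand, and that of Trim26 at chr17:36836979-36837008 on the plus strand. Trim5 and Trim12a were identical over 30 of 30 bases and Trim12c matched them at 28. Trim30a and Trim30d were also identical over 30 of 30. The motif of Trim30a began 36 bases before its start. At a second RefSeq start of Trim30a the motif, in the window chr7:104446104-104446133, lay 2 bases after the start. Because Trim30a carries most of the results below, the 250 bases upstream of the first start, chr7:104465194-104465443 on the minus strand, are given in full.
Trim30a upstream: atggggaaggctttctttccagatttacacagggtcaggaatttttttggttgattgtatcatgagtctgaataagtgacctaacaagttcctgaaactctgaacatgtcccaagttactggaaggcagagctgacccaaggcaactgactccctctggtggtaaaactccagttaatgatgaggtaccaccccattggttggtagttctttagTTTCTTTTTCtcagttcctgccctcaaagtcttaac
A match is a description of the letters and does not show that a factor binds there.

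The 6 WT populations were compared first. Of 48 members tested over the 22 WT libraries, 24 differed among populations at an adjusted p under 0.05 and at least 2-fold, against 42.8% of all genes tested. The calls throughout use edgeR's quasi-likelihood test with Benjamini-Hochberg adjustment over all genes. In bulk libraries a lower level in a population and a smaller share of expressing cells cannot be told apart. The heatmap of WT levels shows the 36 members that reached a mean of 5 CPM in at least 1 population. Their highest mean was in ST-HSCs for 9, CLPs for 8, LT-HSCs for 6, GMPs for 6, MEPs for 4 and CMPs for 3.

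**Figure D1:**
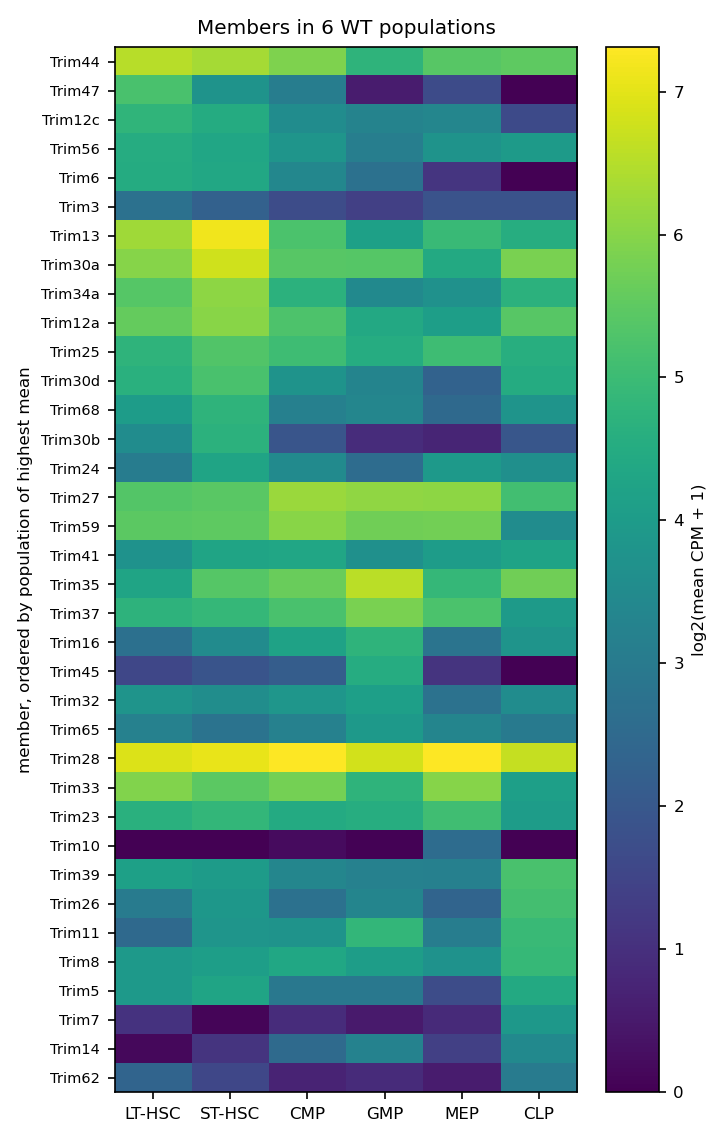
Heatmap of the 36 TRIM members with a mean of at least 5 CPM in 1 or more WT populations. Columns are the 6 populations and rows the members, ordered by the population of their highest mean, and the colour gives log2(mean CPM + 1), not scaled to gene length, so that levels compare along a row. The Trim30a, Trim30b, Trim30d and Trim34a rows are highest in ST-HSCs, Trim47 and Trim6 in LT-HSCs, Trim35, Trim37 and Trim45 in GMPs.

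Trim47 and Trim6 were highest in LT-HSCs and were also called higher in ST-HSCs and CMPs. Trim47, a SPRY-type ligase, averaged 36.1 ± 0.820 CPM in LT-HSCs, 12.4 ± 2.87 in ST-HSCs, 7.53 ± 2.51 in CMPs, 0.482 ± 0.458 in GMPs and 2.20 ± 1.05 in MEPs. It had 0 counts in all 4 CLP libraries, which allows at most 0.0175 CPM over that group for counting error alone. Trim6, which makes unanchored ubiquitin chains in interferon signalling, went from 21.7 ± 8.68 in LT-HSCs and 19.8 ± 8.76 in ST-HSCs through 9.42 ± 3.32 in CMPs and 5.67 ± 0.578 in GMPs to 1.17 ± 0.698 in MEPs and 0.0189 ± 0.0378 in CLPs. For Trim6 LT-HSCs and ST-HSCs overlapped within 1 SD. Against the mean of the other 5 populations, LT-HSCs were higher for Trim47 (log2 difference 4.83, SE 0.61, adjusted p = 1.21e-05), Trim6 (3.22, SE 0.48, adjusted p = 5.48e-05) and Trim12c (1.68, SE 0.53, adjusted p = 0.0333). In all 6 members were higher in LT-HSCs and 4 lower, or 12.5% and 8.33% of those tested, beside 8.50% and 4.31% of all genes. Of the 6, Trim66 and Trim43c each had counts in only 1 of the 3 LT-HSC libraries, at 1.44 and 0.826 CPM. The lower ones included Trim14 (-4.72, SE 1.48, adjusted p = 0.0242), Trim11 (-1.77, SE 0.44, adjusted p = 0.00851) and Trim35 (-1.41, SE 0.26, adjusted p = 0.000914). Trim47 overlaps Trim65 on the same strand, and reads there may be counted for either.

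In ST-HSCs 11 of 48 members were higher and 0 lower, beside 8.62% and 4.11% of all genes. Trim30b (3.47, SE 0.96, adjusted p = 0.0164), Trim6 (3.09, SE 0.48, adjusted p = 8.03e-05) and Trim47 (3.002, SE 0.63, adjusted p = 0.000545) had the largest log2 differences among members at 5 CPM or more in 1 population. Of the 11, 7 belonged to the interferon-inducible list, and all 7 (Trim6, Trim34a, Trim12a and Trim30a to Trim30d) lie in 1 stretch, chr7:104218793-104507849. The level of Trim30a was 110.1 ± 20.1 CPM in ST-HSCs, 62.6 ± 8.14 in LT-HSCs, 56.8 ± 7.46 in CLPs, 41.8 ± 6.81 in CMPs, 40.5 ± 7.27 in GMPs and 20.8 ± 3.30 in MEPs. LT-HSCs and CLPs, and CMPs and GMPs, did not differ beyond their spread, while the ends of the order lay 2.45 log2 units apart (adjusted p of the F test = 4.64e-07). Trim13, which works in protein disposal at the endoplasmic reticulum, had 142 ± 36.8 CPM in ST-HSCs and 16.7 ± 2.09 in GMPs. It shares its locus with the antisense-oriented Dleu2, and the sources used here do not state whether counting used strand.

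CMPs were higher for 2 members, Trim47 (2.15, SE 0.61, adjusted p = 0.00816) and Trim6 (1.80, SE 0.47, adjusted p = 0.0131), which is 4.17% of those tested and equal to the 4.17% of all genes that were higher there. DESeq2 called 5 of 48 (10.4%, beside 7.07% of all genes either way), and leaving out 1 library gave 1 to 3. GMPs were higher for 8 members (16.7%, beside 14.1% of all genes) and lower for 2 (4.17%, beside 2.97%). Among those at 5 CPM or more in 1 population, the higher ones were led by Trim45 (4.62, SE 0.71, adjusted p = 3.78e-05), a filamin-domain member, Trim14 (2.36, SE 0.78, adjusted p = 0.0283), which lacks a RING finger and acts as an adaptor at mitochondria, and Trim35 (1.46, SE 0.19, adjusted p = 1.21e-05), a ligase known from macrophages. Trim35 went from 18.3 ± 0.909 CPM in LT-HSCs to 93.9 ± 31.5 in GMPs. The lower ones were Trim13 (-1.50, SE 0.44, adjusted p = 0.0163) and Trim34a (-1.47, SE 0.32, adjusted p = 0.00213).

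In MEPs 3 members were higher (6.25%, beside 8.09% of all genes) and 5 lower (10.4%, beside 7.58%), and DESeq2 called 15 of 48, 3 higher and 12 lower (31.2%, beside 21.7%). Among the higher ones the erythroid ligase Trim10 had the largest log2 difference (6.63, SE 1.34, adjusted p = 0.000267). It had 5.05 ± 1.76 CPM in MEPs, 0.167 ± 0.244 in CMPs and 0.0299 ± 0.0598 in GMPs. In LT-HSCs, ST-HSCs and CLPs it had 0 counts, which allows up to 0.0139, 0.0131 and 0.0175 CPM over the group. Trim58, which removes dynein from maturing red cells, averaged 3.18 ± 0.828 CPM in MEPs, 2.02 ± 0.656 in GMPs and 1.92 ± 1.12 in CMPs, so that these neighbours overlapped. Trim30a (-1.53, SE 0.17, adjusted p = 1.37e-06), Trim30d (-2.24, SE 0.37, adjusted p = 0.000137) and Trim5 (-2.40, SE 0.79, adjusted p = 0.0332), a relative of the retroviral restriction factor, were lower in MEPs.

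CLPs had 6 members higher (12.5%, beside 15.6% of all genes) and 9 lower (18.8%, beside 13%). Trim7 (4.72, SE 1.22, adjusted p = 0.00393), a glycogenin-binding ligase, Trim14 (2.63, SE 0.78, adjusted p = 0.0101) and Trim62 (2.58, SE 0.997, adjusted p = 0.0473) were higher. Trim47 and Trim6, given above, were lower, and so was Trim45, which had 0 counts in all 4 WT CLP libraries against 22.1 ± 7.92 CPM in GMPs.

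Of the chromatin members, Trim28 lay between 99.9 ± 50.2 CPM in CLPs and 158 ± 12.4 in MEPs (adjusted p of the F test = 0.194). Trim33, a partner of SMAD proteins, ranged from 16.5 ± 6.54 CPM in CLPs to 62.5 ± 8.31 in MEPs (adjusted p of the F test = 4.03e-05). Trim24, a reader of histone marks and coregulator of nuclear receptors, lay between 4.98 and 18.1 CPM and did not pass (adjusted p of the F test = 0.145), although its highest and lowest populations were 1.84 log2 units apart, close to the 1.89 of Trim33. Trim66 never exceeded 82 counts in a library.

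Genotypes were then compared within each population. Calls were few. None of 41 members passed in LT-HSCs, none of 44 in ST-HSCs and none of 34 in CLPs, where 0.0245%, 0.0185% and 0.00766% of all genes passed. Of 44 tested members 2 were lower in Tet2-/- CMPs (4.55%, where 3.92% of all genes were lower and 4.57% changed either way). In Tet2-/- GMPs 4 of 44 were lower and 0 higher (9.09% lower, where 4.06% of all genes were lower, 0.308% higher and 4.37% changed either way). Of 41 in MEPs, 1 was higher and 0 lower (2.44% higher, where 0.147% of all genes were higher, 4.21% lower and 4.36% changed either way). At an unadjusted p under 0.05 the members numbered 5 for LT-HSCs, 1 for ST-HSCs, 10 for CMPs, 15 for GMPs, 8 for MEPs and 4 for CLPs, or 12.2%, 2.27%, 22.7%, 34.1%, 19.5% and 11.8%, beside 5.16%, 6.13%, 19.1%, 17.3%, 16.4% and 3.65% of all genes. DESeq2, the tool of the study, called 2 members in LT-HSCs, 0 in ST-HSCs and 0 in CLPs, where it called 1.38%, 1.97% and 2.8% of all genes. It called 4 of 45 lower in CMPs (8.89%, beside 6.94% of all genes either way), which adds Trim36 and Trim47, the same 4 as edgeR in GMPs (8.33%, beside 5.7%), and 2 of 42 in MEPs (4.76%, beside 5.95%), Trim30a higher and Trim62 lower. Trim36 in CMPs and Trim62 in MEPs were too low for edgeR's filter, with WT means of 0.942 ± 0.837 and 0.466 ± 0.400 CPM and 0 in Tet2-/-. The median log2 fold change of the members was 0.21 for LT-HSCs, -0.01 for ST-HSCs, 0.01 for CMPs, 0.05 for GMPs, 0.08 for MEPs and 0.10 for CLPs, where the medians of all genes were 0.06, 0.04, 0.03, 0.03, 0.05 and 0.07. Leaving out 1 library moved the member median to between 0.01 and 0.27 in LT-HSCs and over both signs in the other 5 populations (-0.17 to 0.10, -0.07 to 0.06, -0.06 to 0.26, -0.02 to 0.18 and -0.16 to 0.38 in the order above).

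The lower calls fell on 4 genes, 2 of which were called in both CMPs and GMPs. Trim27, a ligase that works with MAGE proteins and curbs interferon and NF-kB signalling, fell in CMPs and in GMPs. In CMPs it had 61.9, 75.2, 91.5 and 62.9 CPM in the WT libraries and 29.5, 39.3, 34.99 and 38.1 in the Tet2-/- libraries. The log2 fold change was -1.05 (SE 0.17, adjusted p = 0.00564). In GMPs it had 89.7, 63.7, 54.8 and 60.2 CPM in WT and 18.9, 35.3, 34.0 and 25.4 in Tet2-/-, a change of -1.27 (SE 0.22, adjusted p = 0.00472). Every Tet2-/- library lay below every WT library in both populations, which for 4 against 4 gives the smallest p that the two-sided exact permutation test can reach (0.0286). Without WT replicate 4 or without Tet2-/- replicate 2 the CMP change dropped just below 2-fold, the smallest being -0.93 with its adjusted p still under the threshold. Its log2 fold changes elsewhere were -0.67 for MEPs, -0.79 for CLPs, -0.42 for LT-HSCs and -0.35 for ST-HSCs, none of which passed.

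Trim14 was also called lower in CMPs and GMPs. This RING-less adaptor had 9.93, 10.3, 6.05 and 7.35 CPM in WT GMPs and 1.07, 1.90, 2.18 and 2.37 in Tet2-/- GMPs (log2 fold change -2.18, SE 0.32, adjusted p = 0.00139). In CMPs it had 3.44, 5.63, 4.98 and 5.04 CPM in WT and 0.861, 0.992, 0.0778 and 0.124 in Tet2-/- (-3.17, SE 0.82, adjusted p = 0.0469). In MEPs it went from 1.598 ± 0.494 to 0.218 ± 0.371 CPM (-2.75, SE 1.498), which did not pass edgeR's test (adjusted p = 0.397). The groups did not overlap in any of these 3 populations (exact permutation p = 0.0286 in each). Its log2 fold changes were -0.28 (SE 1.74) in ST-HSCs and -0.42 (SE 2.49) in CLPs, and it was too low to be tested in LT-HSCs. The CMP call stands close to the threshold and was lost in all 8 fits that left out 1 library, with adjusted p from 0.0550 to 0.107, and also without the low-count filter or with a replicate block. Trim14 lies over the antisense-oriented Nans.

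The remaining GMP calls were Trim35 and the membrane-anchored Trim59. Trim35 had 116, 125, 58.8 and 76.2 CPM in WT GMPs against 39.8, 44.7, 42.3 and 36.8 in Tet2-/- GMPs (log2 fold change -1.23, SE 0.21, adjusted p = 0.00467). Trim59 had 73.5, 57.5, 39.6 and 39.0 against 20.1, 20.1, 29.9 and 19.5 (-1.26, SE 0.23, adjusted p = 0.00657). For both genes all 4 Tet2-/- libraries were below the lowest WT library, and the WT libraries were the more scattered ones. In MEPs Trim35 also passed the adjusted p, short of 2-fold, with 21.6, 34.9, 27.2 and 28.5 CPM in WT and 19.7, 16.9, 13.2 and 13.1 in Tet2-/- (-0.84, SE 0.21, adjusted p = 0.0450). Trim59 there went from 52.6 ± 6.15 to 34.6 ± 4.996 CPM (-0.61, SE 0.15, adjusted p = 0.0539). Every Tet2-/- library below every WT library was seen for 5 of 44 members in GMPs, 6 of 44 in CMPs, 4 of 41 in MEPs and 2 of 44 in ST-HSCs (11.4%, 13.6%, 9.76% and 4.55%), beside 7.44%, 8.97%, 8.52% and 4.86% of all genes. For CLPs it was 3 of 34 (8.82%, beside 1.96%) and for LT-HSCs 0 of 41 (beside 3.96%). The reverse, every Tet2-/- library above every WT library, was seen for 8 of 44 in GMPs, 1 of 44 in CMPs and 4 of 41 in MEPs. These were 18.2%, 2.27% and 9.76%, beside 5.85%, 6.82% and 4.52% of all genes. It was seen for 5 of 41 in LT-HSCs (12.2%, beside 3.12%), 0 of 44 in ST-HSCs (beside 3.28%) and 2 of 34 in CLPs (5.88%, beside 1.91%). The 4 genes named here were picked by their calls, so their separation is a description.

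**Figure D2:**
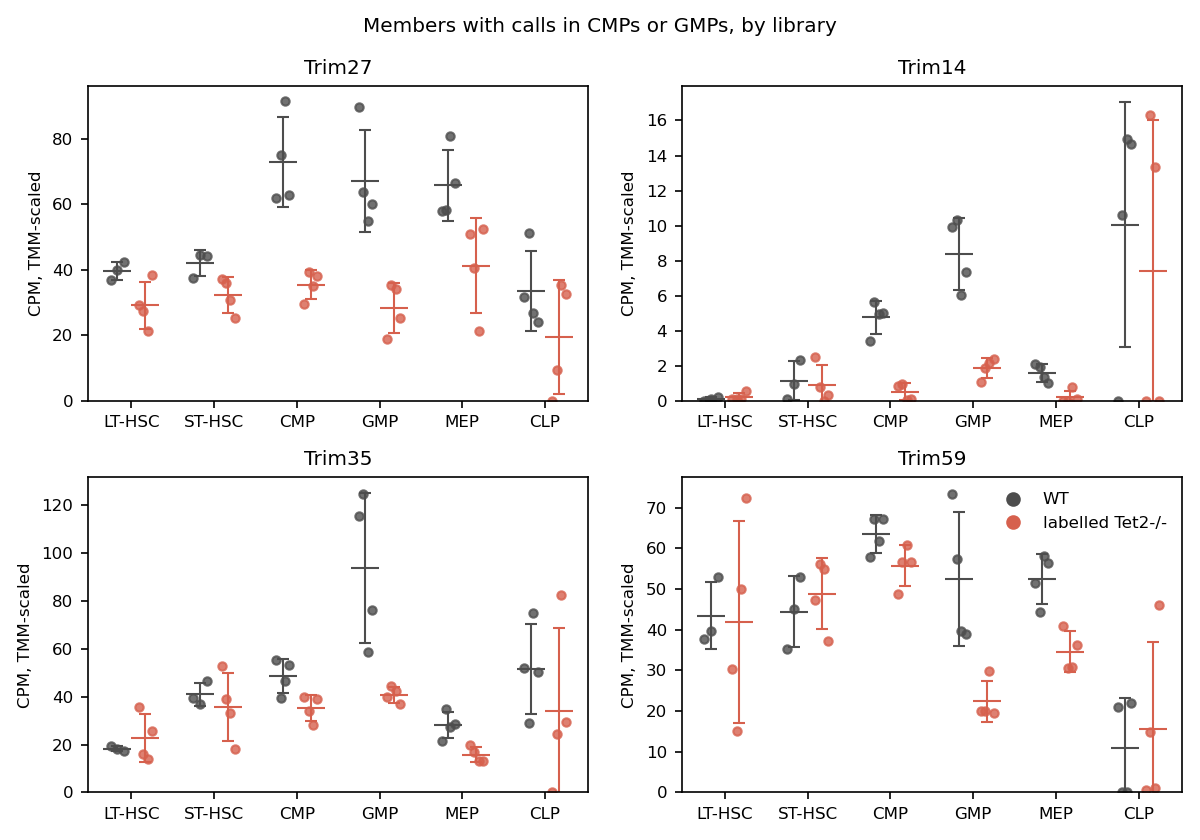
CPM of Trim27, Trim14, Trim35 and Trim59 in each library of the 6 populations, WT in grey and Tet2-/- in red, with the mean and SD as bars. In GMPs every red point lies below every grey point for all 4 genes, as in MEPs, where none of the 4 was called, and this holds for Trim27 and Trim14 in CMPs and for Trim27 in ST-HSCs.

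A pair of members rose in GMPs at an adjusted p under 0.05 without reaching 2-fold, so that 6 of 44 (13.6%) passed at any fold, beside 6.56% of all genes. Trim44, which has no RING finger and has been described as a deubiquitinase, had 26.1, 20.5, 34.96 and 22.7 CPM in WT and 51.2, 64.3, 51.1 and 41.9 in Tet2-/- GMPs (0.96, SE 0.21, adjusted p = 0.0169). Trim56, a ligase that acts on cGAS and STING, had 8.42, 7.80, 7.77 and 6.96 against 11.5, 15.3, 14.5 and 12.3 (0.76, SE 0.19, adjusted p = 0.0365). Neither pair of groups overlapped, which in this direction was so for 8 of 44 members in GMPs (18.2%, beside 5.85% of all genes).

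With all 46 libraries in 1 fit, which then share 1 estimate of the spread, 0 members were called in CMPs and 0 in GMPs, where 1.27% and 0.979% of all genes were. The log2 fold changes in that fit were -1.04 for Trim27 and -3.15 for Trim14 in CMPs, with edgeR's adjusted p at 0.634 and 0.567. In GMPs they were -1.24 for Trim27, -2.15 for Trim14, -1.20 for Trim35 and -1.23 for Trim59, with adjusted p from 0.956 to 1. Marker sums moved with genotype in these populations. The 5 megakaryocyte-erythroid markers summed to 528.5 to 1495 CPM in WT CMPs and 2657 to 5461 in Tet2-/- CMPs, and the 5 lymphoid markers to 61.0 to 142 against 43.7 to 67.0, with Rag1 at 0 in the latter. In GMPs the 5 neutrophil markers gave 15.6 to 50.9 against 4.74 to 19.98, with Ltf at 0 in both, the 5 HSC markers 11.8 to 15.6 against 15.7 to 22.8, the 4 macrophage markers 57.1 to 97.4 against 96.1 to 137.9 and the 5 lymphoid markers 32.7 to 68.7 against 19.3 to 38.9. In MEPs the 5 mature erythroid markers gave 157 to 430 against 80.5 to 106.5. Their part in the TRIM changes was not tested.

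Trim30a was the only member that edgeR called higher at 2-fold within a population, in fits of the 2 groups compared. It is an interferon-inducible mouse ligase known to feed back on Toll-like receptor signalling and on STING. In MEPs it had 23.2, 21.8, 22.3 and 15.97 CPM in WT and 36.3, 42.4, 50.4 and 50.1 in Tet2-/-, all of the latter above all of the former (log2 fold change 1.10, SE 0.18, adjusted p = 0.00584; exact permutation p = 0.0286). Without WT replicate 5 the change was 0.99 and the 2-fold call was lost. The call held in the fit of all 46 libraries. Only 22 of 14934 genes were called higher in MEPs. Among members at 5 CPM or more, Trim5 (1.18, SE 0.58, adjusted p = 0.359) and Trim30d (1.10, SE 0.47, adjusted p = 0.284) had log2 fold changes at least as large there, and neither passed.

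Elsewhere the same gene was higher on average in each population without passing the adjusted test. In LT-HSCs it had 53.2, 66.9 and 67.7 CPM in WT and 74.6, 109, 92.9 and 138 in Tet2-/- (0.75, SE 0.25, adjusted p = 0.743). In CLPs the values were 59.5, 64.9, 55.5 and 47.2 against 129.6, 104, 91.5 and 75.5 (0.82, SE 0.28, unadjusted edgeR p = 0.0179, exact permutation p = 0.0286, adjusted p = 1). In GMPs they were 48.6, 36.5, 32.6 and 44.3 against 52.0, 58.0, 70.8 and 53.9 (0.50, SE 0.16, adjusted p = 0.0977). In these 3 populations the groups did not overlap. In CMPs 48.9, 39.0, 45.6 and 33.7 stood against 51.0, 72.3, 69.0 and 45.3 (0.49, SE 0.19, adjusted p = 0.195), and in ST-HSCs, where the WT level is highest, 87.1, 124 and 119 stood against 132, 158, 103 and 97.3 (0.18, SE 0.23, exact permutation p = 0.6). Both of these overlapped. Whether the effect differed among the 6 populations was tested in 1 fit of the 46 libraries, and it did not pass (adjusted p of the interaction = 0.408).

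**Figure D3:**
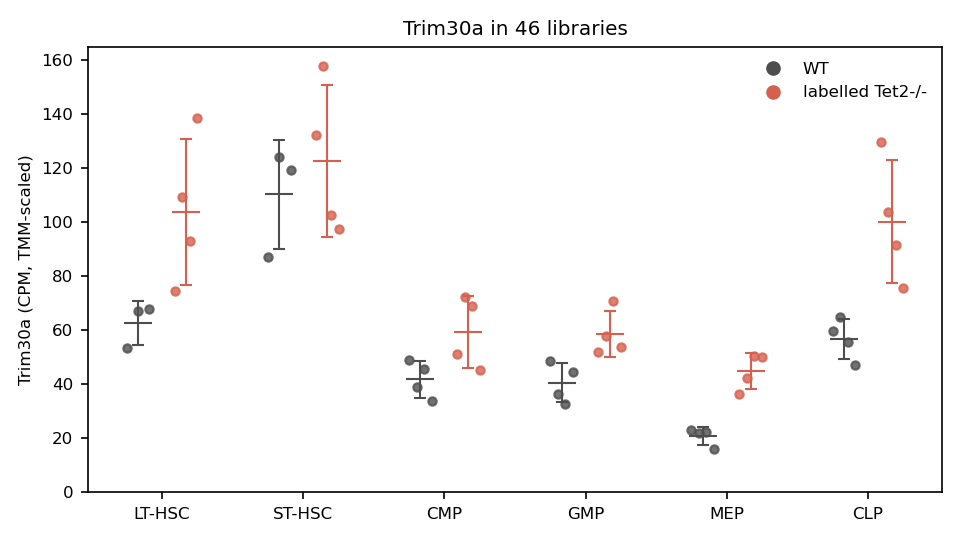
Trim30a in CPM in all 46 libraries of the first set by population, WT in grey and Tet2-/- in red, with each point a library. Red lies wholly above grey in LT-HSCs, GMPs, MEPs and CLPs and overlaps it in ST-HSCs and CMPs.

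LT-HSCs were among the populations in which the study looked for an interferon response. No member passed edgeR's adjusted test there, while DESeq2 called Trim21 and Trim24 higher, and the 5 with an unadjusted p under 0.05 (12.2% of 41, beside 5.16% of all genes) were all higher in Tet2-/-. As these 5 were picked by their p, the separation of their groups, seen in that direction for 3.12% of all genes, is a description. Trim24 had 6.62, 6.02 and 9.52 CPM in WT and 39.6, 14.4, 17.8 and 30.3 in Tet2-/- (log2 fold change 1.81, SE 0.46, unadjusted edgeR p = 0.00353, exact permutation p = 0.0286, adjusted p = 0.507). Trim25, which ubiquitinates the RNA sensor RIG-I, had 27.9, 18.7 and 31.5 against 74.5, 44.5, 40.4 and 61.6 (1.11, SE 0.32, unadjusted edgeR p = 0.00820, exact permutation p = 0.0286, adjusted p = 0.687). The spread among the 4 Tet2-/- libraries was wide, and replicates 2 and 5 held the higher values for Trim24, Trim25, Trim21 and Trim30d. The 5 HSC markers summed to 315 to 531 CPM in WT and 480 to 682 in Tet2-/- LT-HSCs and the 5 mature erythroid markers to 60.3 to 149 against 42.1 to 72.8, and their part in these values was not tested.

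Trim21, the cytosolic antibody receptor, had 2.11, 0.843 and 1.69 CPM in WT LT-HSCs and 7.81, 4.03, 4.04 and 9.69 in Tet2-/- (2.05, SE 0.69, unadjusted edgeR p = 0.0156, exact permutation p = 0.0286, adjusted p = 0.743). Trim30d, a neighbour and near copy of Trim30a, had 29.7, 17.1 and 25.3 against 58.4, 37.7, 31.1 and 50.8 (0.91, SE 0.33, unadjusted edgeR p = 0.0242, exact permutation p = 0.0571, adjusted p = 0.789). Trim21 and Trim25 had been picked by the study on these same libraries, so their direction is not independent evidence. The effect of Trim24 in LT-HSCs was 1.49 log2 units (SE 0.60) above the mean of the other 5 populations, with an unadjusted edgeR p of 0.0167 and an adjusted p of 0.691. None of 49 members passed this test of LT-HSCs against the others, which 0.157% of all genes did, and 3 had an unadjusted p under 0.05 (6.12%, beside 5.04% of all genes). DESeq2 called Trim2 higher and Trim45 lower in it (4.08%, beside 5.82% of all genes).

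**Figure D4:**
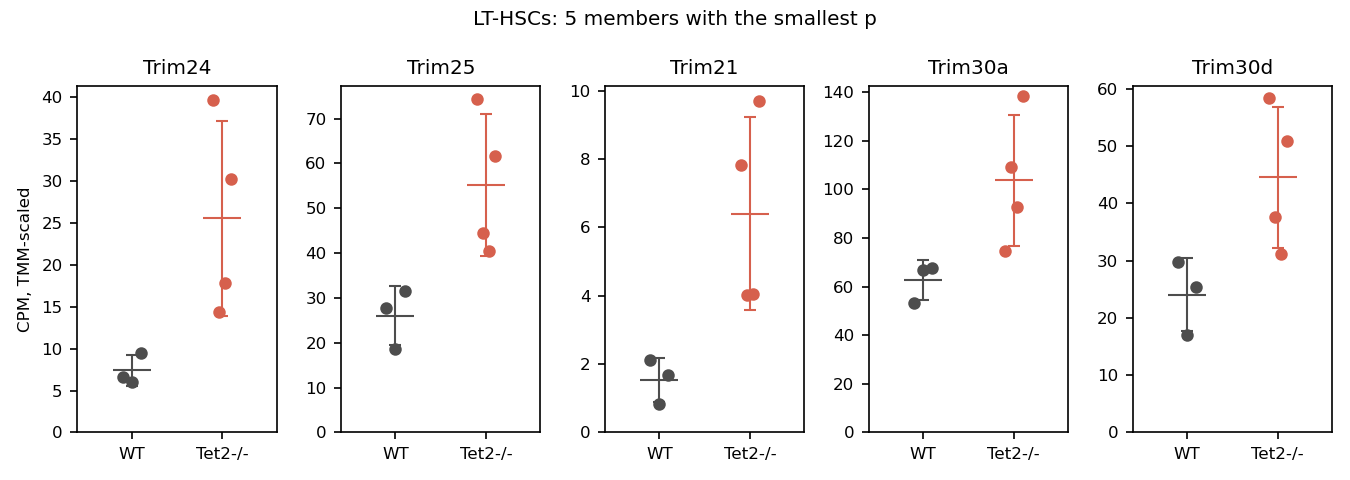
CPM of Trim24, Trim25, Trim21, Trim30a and Trim30d in WT (grey, 3 libraries) and Tet2-/- (red, 4 libraries) LT-HSCs, with mean and SD. All red points lie above all grey points in each panel, and none of the 5 genes passed edgeR's adjusted test, while DESeq2 called Trim21 and Trim24.

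The interferon-inducible list was then read as a whole. It was written with earlier results of these data known, and it holds Trim21 and Trim25, picked by the study on these libraries. Its near-identical chromosome 7 neighbours may share reads, so the numbers below describe the list and do not count independent members. In LT-HSCs 14 of its 16 members were tested, Trim14 and Trim38 being too low, and 11 had a positive log2 fold change, with a median of 0.43. Besides those above, the values were 0.47 for Trim34a, 0.36 for Trim12a, 0.21 for Trim12c, 0.29 for Trim56, 0.40 for Trim30b, 0.50 for Trim30c and 2.36 (SE 1.62) for Trim34b, and -0.54 for Trim5, -0.22 for Trim6 and -0.09 for Trim26. Numbers positive were 10 of 15 for ST-HSCs (median 0.21), 9 of 15 for CMPs (0.24), 12 of 15 for GMPs (0.55), 10 of 14 for MEPs (0.35) and 8 of 12 for CLPs (0.62). The median of the list lay above that of all genes in each population. Of all members tested, 24 of 41, 22 of 44, 22 of 44, 24 of 44, 22 of 41 and 18 of 34 were positive from LT-HSCs to CLPs. Beyond the called Trim14 in CMPs and GMPs and Trim30a in MEPs, edgeR called no list member in fits of the 2 groups compared. Members of the list with an unadjusted p under 0.05 numbered 4 of 14 for LT-HSCs, 0 of 15 for ST-HSCs, 2 of 15 for CMPs, 8 of 15 for GMPs, 4 of 14 for MEPs and 2 of 12 for CLPs, beside 5.16%, 6.13%, 19.1%, 17.3%, 16.4% and 3.65% of all genes. Those in GMPs included Trim30d (0.80, adjusted p = 0.0629) and Trim34a (0.68, adjusted p = 0.0808) on the positive side and Trim14 (-2.18) on the negative.

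**Figure D5:**
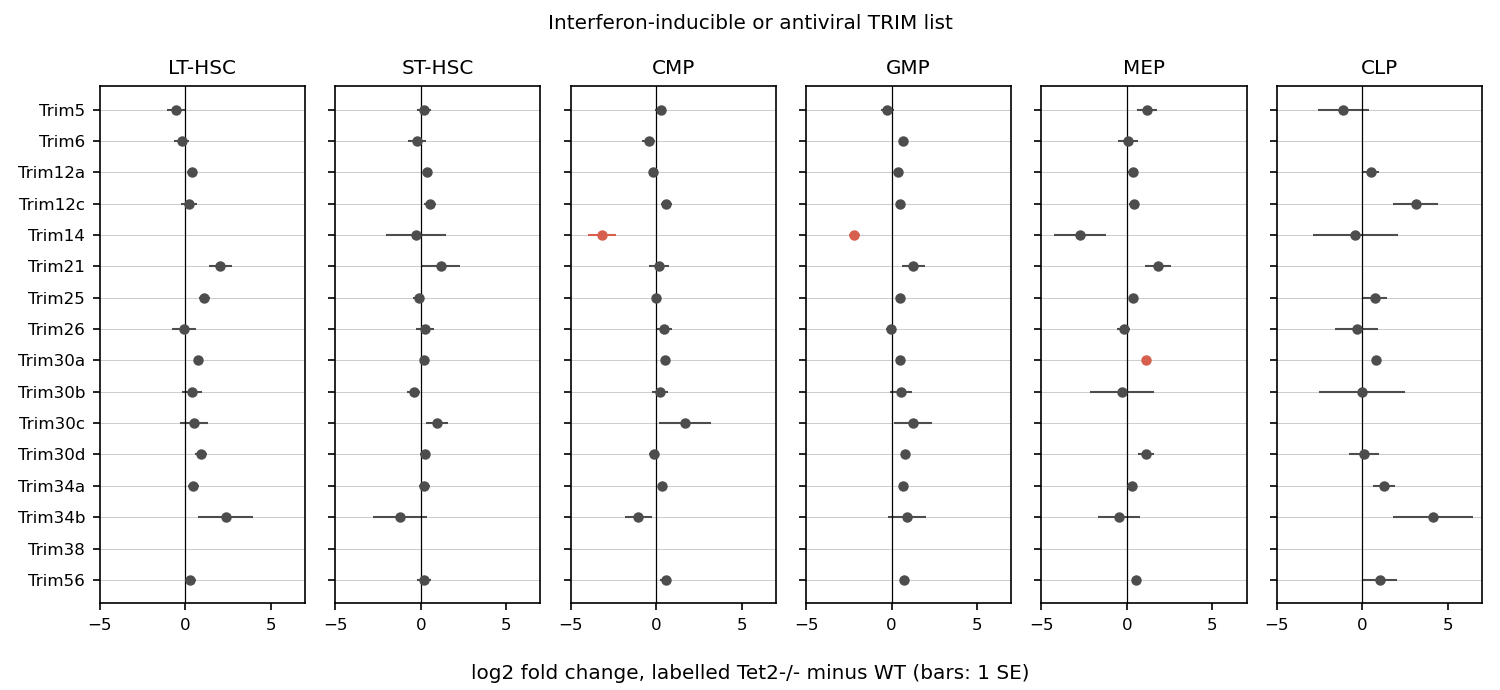
Log2 fold change, Tet2-/- against WT, of the tested members of the interferon-inducible list in 6 panels, 1 per population, with bars of ±1 SE. Members called at an adjusted p under 0.05 and 2-fold are red, which are Trim14 in CMPs and GMPs and Trim30a in MEPs, and most of the other points lie right of 0.

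CLPs had wide errors. Trim12c, a mouse relative of Trim5, had 4.25, 0.0750, 0.660 and 3.40 CPM in WT and 31.7, 10.5, 21.6 and 9.44 in Tet2-/- CLPs (3.12, SE 1.34, unadjusted edgeR p = 0.0440, exact permutation p = 0.0286, adjusted p = 1). Trim39, a ligase of cell-cycle and apoptosis control, had 24.4, 47.9, 40.8 and 31.2 against 0.561, 15.4, 9.68 and 5.53 (-2.18, SE 0.93, unadjusted edgeR p = 0.0438, exact permutation p = 0.0286, adjusted p = 1). The groups did not overlap for either gene. In CLPs this was seen for 2 of 34 members higher and 3 of 34 lower. These were 5.88% and 8.82%, beside 1.91% and 1.96% of all genes. With all 46 libraries in 1 fit edgeR called 7 members in CLPs, where Trim12c, Trim23, Trim34a, Trim37 and Trim45 were higher and Trim39 and Trim41 lower, or 10.2% and 4.08% of 49 members, beside 4.48% and 2.12% of all genes in that fit. Trim45 there rested on 1 Tet2-/- library (0 in WT, 1.97 ± 3.94 CPM in Tet2-/-) and was too low for the fit of the 2 groups. The largest log2 fold changes among members at 5 CPM or more were 4.15 (SE 2.33) for Trim34b and -3.27 (SE 2.18) for Trim7. In the CLP libraries the share of counts on TRIM genes was 0.0391% to 0.0530% in WT and 0.0601% to 0.0916% in Tet2-/-, and the 4 B cell markers summed to 567 to 1267 CPM against 99.7 to 669, while the 5 myeloid markers ranged over 4.94 to 3046 CPM and 2.63 to 12060. The part of these in these values was not tested.

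ST-HSCs showed the least. The single member under an unadjusted p of 0.05 was Trim13, with 103, 148 and 176 CPM in WT and 74.1, 51.6, 103 and 73.2 in Tet2-/- (-0.88, SE 0.27, unadjusted edgeR p = 0.0113, exact permutation p = 0.0857, adjusted p = 0.560). The highest Tet2-/- library lay just above the lowest WT library, so the groups overlapped. Trim32, an NHL-repeat ligase of muscle (-1.07, SE 0.85), Trim30c (0.95, SE 0.65) and Trim11 (-0.94, SE 0.68) had the largest changes there among members at 5 CPM or more, all within 2 SE of 0. In CMPs Trim32 (-1.19, SE 0.46, adjusted p = 0.183) and Trim47 (-1.15, SE 0.38, adjusted p = 0.119), the member highest in WT LT-HSCs, had larger log2 fold changes than the called Trim27 and did not pass edgeR's adjusted test, though DESeq2 called Trim47.

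By edgeR the chromatin and erythroid members did not pass within any population, and DESeq2 called Trim24 higher in LT-HSCs. Trim28 had log2 fold changes between -0.45 in CLPs and 0.16 in MEPs. Trim33 lay between -0.43 in LT-HSCs and 0.88 in CLPs, and Trim24 outside LT-HSCs between -0.30 in ST-HSCs and 0.91 in CMPs. Trim66 was too low to be tested. Trim10 was -0.69 and Trim58 -0.73 in MEPs. In CMPs Trim10 had 0.167 ± 0.244 CPM in WT and 1.38 ± 1.02 in Tet2-/- (2.87, SE 1.55, adjusted p = 0.341).

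The genotype effect was also averaged over the 6 populations in 1 fit of the 46 libraries. Of 49 members 3 were higher and 0 lower at an adjusted p under 0.05, or 6.12%, beside 6.94% of all genes, and none reached 2-fold, which 3.49% of all genes did (1.73% higher and 1.76% lower). At an unadjusted p under 0.05 there were 16 members (32.7%, beside 17% of all genes). Trim30a was higher by 0.64 log2 units (SE 0.09, adjusted p = 1.85e-06), Trim12c by 0.89 (SE 0.23, adjusted p = 0.0137) and Trim34a by 0.54 (SE 0.16, adjusted p = 0.0284). All of these belong to the interferon-inducible list and have the motif in the promoter windows above, as do 5 list members that did not pass (Trim21, Trim5, Trim12a, Trim30d and Trim26), and a link of the motif to the effect was not tested. Of the list's 15 tested members 13 had a positive mean effect, with a median of 0.51, beside medians of 0.08 for the 49 members, 28 of them positive, and 0.06 for all genes. Trim27 was lower by the mean effect of -0.76 (SE 0.25), which did not pass (adjusted p = 0.0543).

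Libraries of the same number may come from 1 mouse, in which case these p-values are too small. A fit in limma voom with an estimated mouse correlation, which came to 0.0217, changed the tool and the block at once, so what each contributed was not tested. In that fit Trim30a stayed under an adjusted p of 0.05 (0.61, adjusted p = 0.000196), as did Trim12c (1.02, adjusted p = 0.00349, there also past 2-fold), while Trim34a did not (0.53, adjusted p = 0.113) and Trim27 fell under it (-1.14, adjusted p = 0.00111). On leaving out all libraries of 1 number and genotype, Trim30a stayed under it in 8 of 8 fits, with adjusted p of at most 8.32e-05, and Trim34a in 4 of 8.

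Because CLP libraries stood apart in scaling, the mean was also taken over the other 5 populations (38 libraries), a choice made after seeing the data. The count then rose to 10 of 49 members at an adjusted p under 0.05 (20.4%, beside 10.1% of all genes), with 8 higher and 2 lower. Trim27 was lower (-0.74, SE 0.11, adjusted p = 6.77e-06), and so was Trim35 (-0.45, adjusted p = 0.0146). Trim30a (0.62, adjusted p = 1.01e-05), Trim30d (0.61, adjusted p = 0.00961), Trim24 (0.67, adjusted p = 0.00981), Trim56 (0.49, adjusted p = 0.0156) and Trim25 (0.38, adjusted p = 0.0203) were higher, with Trim34a (0.41, adjusted p = 0.0292) and Trim12c (0.46, adjusted p = 0.0485) nearer the threshold. Trim21 (1.33, SE 0.35, adjusted p = 0.0105) was the one past 2-fold.

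The direction across populations was counted without a test. Of the 32 members tested in all 6, Trim30a, Trim12c, Trim34a, Trim56 and Trim23, a member with an ARF GTPase domain, were higher in 6 of 6, and Trim27 was lower in 6 of 6. Over all 11703 genes tested in 6 populations, 7.31% were higher and 5.13% lower throughout. No member passed the interaction test for an effect that differs among populations (0 of 49, beside 2.65% of all genes), which does not show that the effects were equal. At an unadjusted p under 0.05 there were 6 (12.2%, beside 14.0%), and DESeq2 called 2 of 48, Trim12c and Trim45 (4.17%, beside 6.73% of all genes).

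The genes that TRIM proteins work with were read from a list of 26 sensors, signalling proteins and conjugating enzymes, 25 of them in the table. Called lower were 2 of 25 in CMPs, 1 of 25 in GMPs and 2 in MEPs, where 3.92%, 4.06% and 4.21% of all genes were called lower, with none higher and none called in LT-HSCs, ST-HSCs or CLPs. Short of 2-fold, the RNA sensor Ifih1 was higher in CMPs (0.91, adjusted p = 0.0397), Ube2d2a lower in CMPs and GMPs (-0.48, adjusted p = 0.0273, and -0.83, adjusted p = 0.00328) and the signalling ligase Traf6 lower in GMPs (-0.94, adjusted p = 0.0196). All calls at 2-fold fell on the UBE2D family, the E2 enzymes that hand ubiquitin to many RING ligases. Ube2d1 had 17.2, 25.3, 18.5 and 25.8 CPM in WT CMPs and 3.19, 4.84, 2.28 and 1.69 in Tet2-/- CMPs (-2.86, SE 0.36, adjusted p = 0.00130). In GMPs it had 38.1, 37.8, 29.4 and 24.5 against 6.60, 7.83, 8.09 and 6.75 (-2.18, SE 0.19, adjusted p = 3.38e-05). In MEPs it had 10.1, 6.80, 10.7 and 11.2 against 2.69, 3.12, 1.37 and 3.52 (-1.85, SE 0.34, adjusted p = 0.0120).

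The groups were apart for Ube2d1 in all 3 populations. In LT-HSCs it was low in both genotypes, 2.42 ± 0.448 CPM in WT and 3.50 ± 1.92 in Tet2-/- (0.55, SE 0.75). Ube2d3 had 283 ± 49.1 CPM in WT and 185 ± 61.7 in Tet2-/- LT-HSCs (-0.59, SE 0.31, adjusted p = 0.998). It went from 548 ± 50.4 to 259 ± 80.8 CPM in CMPs (-1.10, SE 0.21, adjusted p = 0.0132) and from 692 ± 35 to 266 ± 105 in MEPs (-1.39, SE 0.25, adjusted p = 0.00960). In GMPs its change was -0.24 (SE 0.12). Of the 4 TRIM proteins under other symbols, Mid1, a microtubule-bound ligase, was lower in CMPs (-1.39, adjusted p = 0.0256). Usp18, which removes the interferon-induced modifier ISG15, had log2 fold changes of 0.92, 0.53, 0.92, 1.31, 0.98 and 0.99 from LT-HSCs to CLPs, none called. It was picked from the list of partners after its values were seen. In the same order, 14 of 24, 11 of 25, 7 of 25, 15 of 25, 15 of 25 and 14 of 24 tested partners were positive. Their medians were 0.15, -0.24, -0.19, 0.12, 0.13 and 0.10.

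The second set, read by its labels, gave no call. Of 30 members 0 passed for Tet2;Sting DKO against Sting-/- LT-HSCs (0.159% of all genes passed), 0 of 30 for DKO against WT (0.657%) and 0 of 32 for Sting-/- against WT (0.0%). At an unadjusted p under 0.05 there were 3, 3 and 1 (beside 8.3%, 13.2% and 4.71% of all genes), and DESeq2 called 2 in each, beside 8.11%, 13% and 3.75% of all genes. The labels could not be checked cleanly. Tmem173, the gene of STING, gave 1788, 1168 and 0 counts for WT, 6333, 0 and 3835 for the label Sting-/- and 0, 14 and 1128 for the label DKO. The female transcript Xist averaged 165 CPM for WT, 5.16 for the label Sting-/- and 0.105 for DKO, and the Y-linked Eif2s3y 0.149, 180 and 296, so genotype and sex cannot be told apart against WT.

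Trim25 stood at 209.9, 141 and 45.6 CPM for WT, at 183, 64.8 and 83.8 under the label Sting-/-, and at 27.9, 3.67 and 0.947 under the label DKO. All Trim25 values under the label DKO were below all others. Trim25 was shown after its values were seen, so this separation is a description. The log2 difference was -3.32 (SE 1.35, adjusted p = 0.564) from Sting-/- and -3.67 (SE 1.32, adjusted p = 0.260) from WT, a comparison that shares the DKO libraries. Larger differences from Sting-/- were those of Trim30b (-8.41, SE 3.33, adjusted p = 0.365), Trim12c (6.28, SE 2.62, adjusted p = 0.575) and Trim6 (4.65, SE 3.32, adjusted p = 0.932). Trim12c had 30.4, 82.7 and 50.7 CPM under the label DKO, above 0, 1.93 and 0.0325 under the label Sting-/-. DESeq2 called Trim12c higher and Trim30b lower there. From WT, Trim7 (7.495, adjusted p = 0.214) and Trim59 (-6.75, adjusted p = 0.36) differed more. Trim30a had 95.2, 28.6 and 75.3 for WT, 186, 118 and 0.0488 under the label Sting-/- and 111, 3.94 and 100.1 under the label DKO, with full overlap. For Sting-/- against WT, Trim12c (-5.19, SE 3.47), Trim59 (-4.87, SE 3.01) and Trim6 (-4.44, SE 2.85) had the largest log2 differences among members at 5 CPM or more. With 3 against 3 the exact permutation test cannot go below 0.10.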

How the data were processed

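Sorted cells went into RNA-seq libraries by a modified SMART-Seq2 protocol, 46 in the first table and 9 in the second. The authors deposited whole-number counts per gene, not normalized. Reads were trimmed with Trim Galore and mapped with HISAT2 to mm10. The submitters' processing notes give Trim Galore 0.6.7 and HISAT2 7.5.0 and the methods other versions, and notes also name mm9. The counting program and annotation are not given in the sources used here. The methods give another cell number than the labels.

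The main test was the quasi-likelihood F test of edgeR 4.0.16 under R 4.3.3 (TMM scaling, low counts removed by filterByExpr, prior count of 2, Benjamini-Hochberg adjustment over all genes tested), with the 2 groups compared in each fit, 22 libraries for WT populations and 46 for mean effects and interactions. A call needs an adjusted p under 0.05 and 2-fold. DESeq2 1.42.0, with shares taken over genes that have an adjusted p, limma 3.58.1 and two-sided exact permutation tests were alternatives or complements, and the closing section gives the effect of scaling, filter, block and leaving out libraries. The procedure was tested on simulated data. Plots used matplotlib 3.10.9.

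Named members were those called, the 3 of largest change per comparison at 5 CPM or more in 1 group, the tested interferon-inducible list in LT-HSCs, the 3 of largest fold each way per WT population, the 5 highest per kilobase, and the chromatin and erythroid members. Those with an unadjusted p under 0.05, Trim44, Trim23, Trim65, Usp18 and the library values shown were chosen after values were seen. Members and lists were chosen with earlier results of these data known. Intervals and limits for 0 counts (3 counts) cover counting error only. Coordinates are GENCODE vM21 and RefSeq GRCm38.p6. Reads and exons were not analysed here.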

Additional observations from a re-analysis of the deposited data

Results flagged for a closer look

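Of 37 groups of 4 libraries whose TRIM values are printed, 1 held a library apart from the rest. The Ube2d1 values were not part of this check. Trim59 in the GMP library labelled Tet2-/- replicate 4 stood at 29.9 CPM, with the nearest of the others at 20.1. The gap took 0.946 of the range of the group, above the limit of 0.829 for 4 libraries. Chance gives about 1 in 20 such groups. Among the Tet2-/- libraries it was the nearest to WT.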

How the results depend on the processing

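Scaling by RLE changed no count of called members by over 1.5 times. An unadjusted p with 2-fold gave 3 members in LT-HSCs, 4 in CMPs, 3 in MEPs and 3 in CLPs (7.32%, 9.09%, 7.32% and 8.82%, beside 3.35%, 8.05%, 7.27% and 2.98% of all genes), and 3, 3 and 1 in the second set (DKO against Sting-/-, DKO against WT, Sting-/- against WT, beside 7.02%, 11.3% and 3.58%). DESeq2 gave 2 in LT-HSCs, 4 in CMPs, 2 in MEPs, and 5 for WT CMPs and 15 for WT MEPs against the other populations. It gave 3 for the mean effect (Trim45, Trim62 and Trim9, 6.12%, beside 11.7%), 2 for each interaction test and 2, 2 and 2 in the second set. DESeq2's 3 for the mean effect had to pass 2-fold, which edgeR's 3 at an adjusted p under 0.05 did not reach, so the names do not compare. Without the low-count filter CMPs had 1. With all 46 libraries in 1 fit, calls numbered 0 in CMPs, 0 in GMPs and 7 in CLPs, and the cause was not tested. A replicate block left 1 in CMPs (Trim27), and limma voom with a mouse correlation as the block gave 2 for the mean effect. Same-numbered libraries hardly deviated together (median correlation of at most 0.0278 within a genotype or population), so the numbers were not taken to pair samples. Between populations of 1 genotype, the same number gave medians of 0.0278 in Tet2-/- and 0.0218 in WT. Different numbers gave -0.00957 and -0.00676, so the check does not show that the numbers mark separate mice. Leaving out the CLPs gave 1 for the mean effect. Leaving out 1 library gave 0 to 2 in CMPs, 4 to 6 in GMPs, 0 to 2 in MEPs, and 5 to 12, 9 to 12, 1 to 3, 7 to 13, 7 to 10 and 14 to 18 for WT LT-HSCs, ST-HSCs, CMPs, GMPs, MEPs and CLPs against the rest. Leaving out all libraries of 1 number and genotype gave 0 to 1 for the mean effect and for the interaction. CMPs fell to 0 without WT replicate 4 or Tet2-/- replicate 2, and MEPs without WT replicate 5. Besides 41 counts of called members that moved and are given here, 293 stayed the same or within 1.5 times. The median log2 fold change of the members had no test and no such limit. It took both signs on leaving out 1 library in all populations but LT-HSCs. Among the single-gene values followed, 24 lost their pass of the threshold under another setting and 6 gained one, and none reversed in sign. What depth limits was not tested.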
